A study of Homo sapiens with 6 samples.

Results

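The Hedgehog genes described here are the receptor PTCH1, the signal transducer SMO, the ligand co-receptors GAS1, BOC and CDON, the ligand decoy HHIP, the cytoplasmic inhibitor SUFU and the transcription factors GLI1, GLI2 and GLI3. They were chosen by name as the reception and transcription core of the pathway, 10 genes among the 19775 that the arrays named with a single symbol, and they were represented by 30 probe sets. A gene is described by its brightest probe set on average over the 6 arrays, and the others are given after it. The arrays measured messenger RNA of SK-N-AS, an established human neuroblastoma cell line, in 3 cultures of 2 arrays each. iCSC cells received 5AdC, a cytidine analogue that blocks DNA methyltransferases, at 2.5 uM for 5 days while still attached and were then grown as spheroids without serum, Sphere cells were grown as spheroids without serum and without that exposure, and Monolayer cells grew attached with no pretreatment. Medium and attachment therefore changed together between Sphere and Monolayer, and 5AdC exposure changed with both between iCSC and Monolayer. The series asks which stem cell phenotype each culture has. Whether both arrays of a culture stem from independently grown cells is not stated. The p-values therefore reflect only how far the 2 arrays of a culture differ, a spread that may be technical.

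In cells without Hedgehog ligand, PTCH1 keeps SMO inactive, and the GLI proteins are held by SUFU and phosphorylated by protein kinase A, which turns GLI3 mainly and GLI2 in part into shortened repressors. Ligand that binds PTCH1 together with GAS1, BOC or CDON releases SMO at the primary cilium, and full-length GLI2 and GLI3 then reach the nucleus. GLI1, PTCH1 and HHIP are themselves classical transcriptional targets, so GLI1 amplifies the response while PTCH1 and HHIP damp it. The pathway patterns the neural tube and supports the growth of cells of the neural crest, the embryonic source of neuroblastoma.

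Levels are log2 GCRMA signals, and a level under log2 5 is taken as background. A gene entered the test when its probe set reached that limit on at least 2 of the 6 arrays. Of the 10 genes, 8 entered and 2, GLI1 and SUFU, did not. GLI3, PTCH1, GAS1, BOC and CDON were at or above the limit on all 6 arrays. The other 3 entered through the cultures where they were high, SMO through iCSC, HHIP through Monolayer, and GLI2 through iCSC and Monolayer, so the filter favoured a difference in these. On both arrays of a culture, 7 of the 10 genes were measured in iCSC, 5 in Sphere and 7 in Monolayer. The tests are limma's moderated tests with Benjamini-Hochberg adjustment over 10459 genes, a gene is called at an adjusted p under 0.05, and errors of fold changes are standard errors (SE).

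Over all tested genes, Pearson's r was 0.984 within iCSC, 0.992 within Sphere and 0.996 within Monolayer, and between cultures it lay between 0.729 and 0.859. The cultures also differed in cell markers. Of 13 sympathetic neuroblast markers, 11 were measured in iCSC, 12 in Sphere and 5 in Monolayer, where PHOX2A, TH, DBH, CHGB, STMN2 and ELAVL4 were under the limit. DBH was under it in all 3 cultures. The summed linear signal of these markers was 14083 to 15968 in iCSC, 47575 to 56120 in Sphere and 1256 to 1516 in Monolayer. That of 8 mesenchymal markers was 35128 to 35535 in iCSC, 24896 to 28618 in Sphere and 39194 to 40437 in Monolayer, of which the filament protein VIM gave the most. Of the 7 that were tested, 5 (VIM, FN1, SNAI2, YAP1 and RUNX2) were called lower and 2 higher in Sphere against Monolayer, and 4 higher and 2 lower in iCSC against Sphere. The transcription factors PRRX1 and TWIST1 ran opposite to the Hedgehog genes, at 4.42 ± 0.20 and 1.84 ± 0.10 (log2 fold change ± SE) in Sphere against Monolayer and -1.66 ± 0.20 and -0.79 ± 0.10 in iCSC against Sphere. The summed linear signal of 8 fibroblast markers was 12816 to 15598 in iCSC, 23826 to 24504 in Sphere and 22043 to 22400 in Monolayer. Collagens carry most of the sum in iCSC and Monolayer. In Sphere the proteoglycan LUM, at 13.05 and 13.31, was about as bright as the collagen COL3A1, at 13.47 and 13.24. Of the 8 fibroblast markers, 5 passed as higher and 2 as lower in Sphere against Monolayer (median log2 fold change 1.63). In iCSC against Sphere, 3 passed as higher and 4 as lower (median -1.17). In Sphere against Monolayer the matrix proteoglycan DCN was at least 49.8-fold higher, the proteoglycan LUM 50.1-fold higher and the surface protein THY1 at least 13.5-fold higher. Of 7 leukocyte markers, PTPRC alone was measured, in Sphere and Monolayer, and the 4 epithelial markers were under the limit throughout. The part of these shifts in the Hedgehog values was not tested, and in bulk RNA fewer cells of a type and less RNA per cell cannot be told apart.

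All 8 tested Hedgehog genes had their lowest mean in Sphere. In Sphere against Monolayer, all 8 tested genes were called lower and none higher, where 29.1% of all tested genes were called lower, 30.0% higher and 59.0% either way, and the median fitted log2 fold change was -3.25 against 0.01 over all tested genes. With values under the limit set to it, the median of the 8 was -2.31. Only 5 of the 8 (GLI3, PTCH1, GAS1, BOC and CDON) were measured in both cultures, here and in iCSC against Sphere. The filter favoured a difference in the other 3, so the count of 8 is not a fair match to the shares over all genes. In iCSC against Sphere, all 8 were called higher, where 19.3% of all tested genes were called higher, 19.2% lower and 38.5% either way, with a fitted median of 2.13 against 0.01, and of 1.59 with values under the limit set to it. In iCSC against Monolayer, 2 were called higher, 3 lower and 3 neither way, where 29.0% and 26.6% of all tested genes were called higher and lower and 55.6% either way, with a median of -0.65 against 0.02. Both Sphere arrays enter the first pair of comparisons, so low Sphere values give opposite signs in them by construction. With no filter all 10 genes were tested: in Sphere against Monolayer 8 were called lower and 1 higher, where 14.2% and 15.6% of all genes were, and in iCSC against Sphere 7 were called higher and none lower, where 9.05% and 9.22% were. PTCH1 (limma, adjusted p = 0.0741) and CDON (0.0592) were then not called in iCSC against Sphere. In iCSC against Monolayer 3 were then called higher and 3 lower, where 14.2% and 13.2% of all genes were. The genes that joined, GLI1 and SUFU, rest on values under the limit. So do the calls of SMO between Sphere and Monolayer and of HHIP between iCSC and Sphere. No single fold is drawn or read from these, but the fitted medians of the 8 genes count those of SMO and HHIP.

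**Figure D1:**
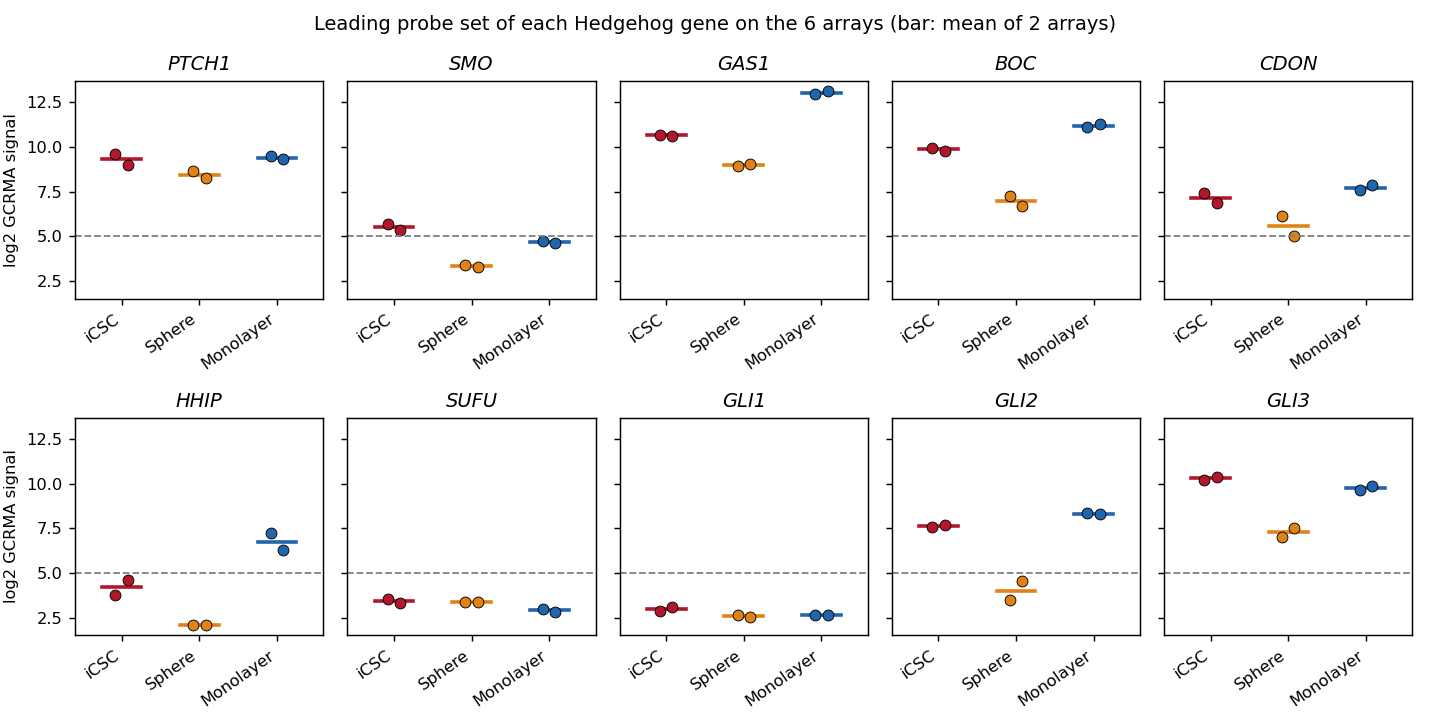
Each panel plots the log2 GCRMA signal of a gene's leading probe set on the 2 arrays of iCSC, Sphere and Monolayer (points, one per array) with the mean of each culture (bar), and the dashed line marks log2 5. Sphere is the lowest culture for PTCH1, SMO, GAS1, BOC, CDON, HHIP, GLI2 and GLI3, while SUFU and GLI1 lie under the line on all arrays. For SMO the Monolayer arrays, and for HHIP the iCSC arrays, lie under the line together with Sphere.

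PTCH1, the membrane receptor that binds the ligand and restrains SMO, was measured in every culture and had the smallest fitted fold change of the 8 tested genes in each comparison. It lay at 9.63 and 8.99 in iCSC, 8.64 and 8.27 in Sphere and 9.48 and 9.31 in Monolayer. The Sphere arrays were below all others, and the iCSC arrays lay on both sides of the Monolayer arrays. The log2 fold change was -0.94 ± 0.24 in Sphere against Monolayer (limma, adjusted p = 0.0138) and 0.86 ± 0.24 in iCSC against Sphere (adjusted p = 0.0301). Between iCSC and Monolayer it was -0.08, with a 95% confidence interval of -0.66 to 0.49 (adjusted p = 0.794).

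Both PTCH1 calls depended on single arrays and on the variance model. Without empirical Bayes moderation they were lost (adjusted p = 0.0979 in Sphere against Monolayer and 0.155 in iCSC against Sphere). The Sphere against Monolayer call was lost without Monolayer replicate 1 (limma, adjusted p = 0.0960), Monolayer replicate 2 (0.0586) or Sphere replicate 2 (0.0912). The iCSC against Sphere call was lost without iCSC replicate 1, where the fold change was 0.54 (0.0898), Sphere replicate 1 (0.0641), Sphere replicate 2 (0.165), Monolayer replicate 1 (0.0712) or Monolayer replicate 2 (0.0710). PTCH1 lies on chromosome 9, whose 417 tested genes had a median fold change of 0.45 in iCSC against Sphere. With chromosome medians removed, a setting chosen after the data were seen, the PTCH1 change there was 0.42 (adjusted p = 0.200). Only 1 of its 5 probe sets reached the limit.

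The PTCH1 gene has 5 start sites in the RefSeq promoter table (assembly GRCh38.p14), and the stretch before one of them is shown because it holds the GLI binding sequence, GACCACCCA or its reverse complement. The motif was searched on both strands of 300-base windows, from 250 bases before to 50 after each start. It occurred in 83 of 35116 windows (0.236%) and in 1 of the 16 windows of the 8 Hedgehog genes that the table holds. The 250 bases before that start, chr9:95509267-95509516 on the minus strand, read as follows with the motif in capitals, its first base 172 bases before the start.
PTCH1: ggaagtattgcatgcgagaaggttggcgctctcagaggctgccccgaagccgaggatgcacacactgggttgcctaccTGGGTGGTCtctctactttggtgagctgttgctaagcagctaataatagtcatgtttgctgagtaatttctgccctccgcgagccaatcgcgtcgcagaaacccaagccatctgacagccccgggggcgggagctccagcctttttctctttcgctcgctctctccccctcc

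SMO, the membrane transducer that PTCH1 restrains, was near or under the limit. Its single probe set gave 5.69 and 5.37 in iCSC, 3.41 and 3.32 in Sphere and 4.73 and 4.63 in Monolayer. The iCSC arrays were the ones above the limit, and the cultures did not overlap. In iCSC, SMO exceeded Sphere by at least 1.44-fold (limma, adjusted p = 0.000262) and Monolayer by at least 1.44-fold (adjusted p = 0.00885), both bounds computed with values under log2 5 set to 5. Sphere and Monolayer were both under the limit, and with values set to it their difference was 0.

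The co-receptors GAS1, BOC and CDON present Hedgehog ligand to PTCH1, GAS1 through a lipid anchor in the membrane and BOC and CDON as related proteins of the immunoglobulin superfamily. GAS1 reached 10.68 and 10.63 in iCSC, 8.96 and 9.07 in Sphere and 12.94 and 13.13 in Monolayer. The 3 cultures were far apart against the spread within each. GAS1 fell by 4.01 ± 0.10 on the log2 scale in Sphere against Monolayer (limma, adjusted p = 8.38e-07) and rose by 1.64 ± 0.10 in iCSC against Sphere (adjusted p = 5.67e-05). In iCSC against Monolayer the log2 fold change was -2.38 ± 0.10 (adjusted p = 7.58e-06). GAS1 also lies on chromosome 9, and with chromosome medians removed its rise in iCSC against Sphere was 1.21 (adjusted p = 0.000514). The other 2 of its 3 probe sets were under the limit on all arrays.

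BOC behaved alike in direction. Its leading probe set gave 9.94 and 9.80 in iCSC, 7.28 and 6.68 in Sphere and 11.10 and 11.27 in Monolayer, so iCSC stood between the other cultures without overlap. The log2 fold change was -4.21 ± 0.20 in Sphere against Monolayer (limma, adjusted p = 9.55e-06). Set against Sphere, iCSC gave 2.89 ± 0.20 (adjusted p = 0.000108), and set against Monolayer -1.32 ± 0.20 (adjusted p = 0.00198). A further BOC probe set gave 5.94 and 5.67 in iCSC, 3.48 and 3.33 in Sphere and 7.06 and 7.24 in Monolayer, and was called the same way in all 3 comparisons. The third, close to the limit at 4.86 to 5.71, was called only in Sphere against Monolayer, at -0.63 ± 0.18 (adjusted p = 0.0244 over all probe sets). BOC lies on chromosome 3, whose median fold change in Sphere against Monolayer was -0.46 over 585 genes.

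CDON varied most within a culture. It lay at 7.41 and 6.85 in iCSC, 6.14 and 5.02 in Sphere and 7.61 and 7.86 in Monolayer. The cultures did not overlap, but the Sphere arrays were over 1 log2 unit apart and one of them was at the limit. The log2 fold change was -2.15 ± 0.38 in Sphere against Monolayer (limma, adjusted p = 0.00330). In iCSC against Sphere it was 1.55 ± 0.38 (adjusted p = 0.0207), a call lost without Sphere replicate 2, where the change was 0.99 (0.0758), without iCSC replicate 1 (0.0899) or without either Monolayer array (0.0542 for both). Between iCSC and Monolayer it was -0.60, with a 95% confidence interval of -1.53 to 0.32 (adjusted p = 0.227). All of this rests on 1 of the 3 CDON probe sets, and the other 2 were under the limit on all arrays.

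The promoters of GAS1 and BOC are shown because 5AdC blocks the enzymes that methylate cytosines of CpG pairs, which are in capitals. Neither window holds the GLI motif. GAS1 has 1 start in the table, with 26 CpG pairs in 300 bases, and BOC has 2, with 36 and 9, where the median over all windows was 14. The 250 bases before the GAS1 start are chr9:86947507-86947756 on the minus strand, and those before the CpG-rich BOC start are chr3:113211866-113212115 on the plus strand. Methylation was not measured here.
GAS1: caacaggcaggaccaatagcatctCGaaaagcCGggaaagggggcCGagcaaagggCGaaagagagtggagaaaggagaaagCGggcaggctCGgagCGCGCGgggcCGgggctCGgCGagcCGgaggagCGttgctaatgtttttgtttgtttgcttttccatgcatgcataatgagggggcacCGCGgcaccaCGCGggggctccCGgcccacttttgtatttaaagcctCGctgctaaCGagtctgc
BOC: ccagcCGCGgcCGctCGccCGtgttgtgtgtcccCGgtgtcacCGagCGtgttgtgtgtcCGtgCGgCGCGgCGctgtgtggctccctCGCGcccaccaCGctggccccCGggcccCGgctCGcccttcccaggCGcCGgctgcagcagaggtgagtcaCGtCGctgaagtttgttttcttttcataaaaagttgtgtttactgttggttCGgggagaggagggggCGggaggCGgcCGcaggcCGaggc

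HHIP, a membrane protein that binds ligand away from PTCH1, was measured in Monolayer alone. Its leading probe set gave 3.80 and 4.60 in iCSC, 2.09 and 2.12 in Sphere and 7.23 and 6.28 in Monolayer. HHIP was at least 3.38-fold lower in Sphere than in Monolayer (limma, adjusted p = 0.000104) and at least 3.38-fold lower in iCSC than in Monolayer (adjusted p = 0.00173), bounds that are equal because both cultures lie under the limit. Between iCSC and Sphere no fold is given. Of the other 3 probe sets, 1 reached the limit on a single Monolayer array, at 5.29, and 2 were under it throughout. SUFU, which tethers GLI proteins in the cytoplasm, was under the limit on all arrays in each of its 4 probe sets. Its leading one lay at 3.56 and 3.33 in iCSC, 3.39 and 3.37 in Sphere and 3.02 and 2.85 in Monolayer.

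**Figure D2:**
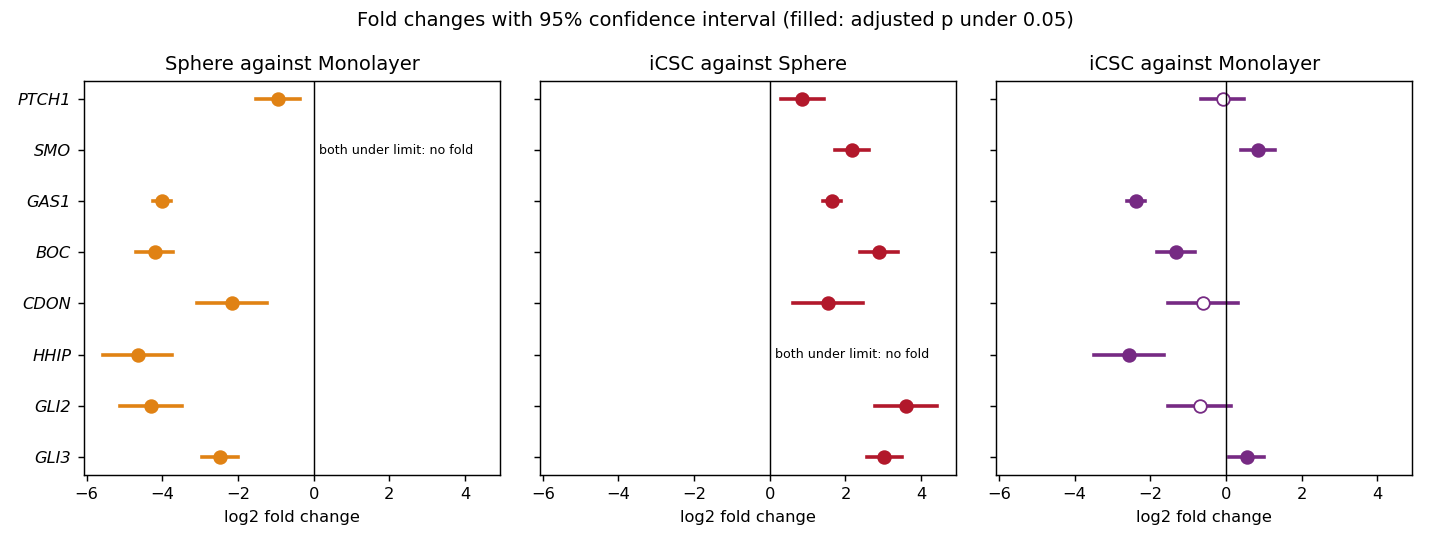
Fitted log2 fold changes of the 8 tested genes (points; left out where both cultures lie under log2 5) with 95% confidence intervals (lines) from limma in the 3 comparisons, filled where the adjusted p was under 0.05. In the last comparison the genes part, with GAS1, BOC and HHIP below 0, SMO and GLI3 above it, and PTCH1, CDON and GLI2 not called.

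GLI2, the main activator of the family, was under the limit in Sphere and measured in the other cultures. It lay at 7.59 and 7.68 in iCSC, 3.48 and 4.58 in Sphere and 8.37 and 8.28 in Monolayer. GLI2 was at least 10.04-fold lower in Sphere than in Monolayer (limma, adjusted p = 8.95e-05), and in iCSC it exceeded Sphere by at least 6.20-fold (adjusted p = 0.000408). Between iCSC and Monolayer the arrays did not overlap, but the change of -0.70 ± 0.34 did not pass the test (adjusted p = 0.129). It passed without Sphere replicate 1 (0.0177) or Sphere replicate 2 (0.0184), when only iCSC and Monolayer were fitted (0.0148), and with values under 5 set to 5 (0.00549). The other measured GLI2 probe set gave 6.97 and 6.81 in iCSC, 3.59 and 3.55 in Sphere and 8.26 and 8.18 in Monolayer. In that probe set the change in iCSC against Monolayer was -1.33 ± 0.16 (adjusted p = 0.000729 over all probe sets).

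GLI3, the main repressor of the family when no ligand is bound, was the member with the highest iCSC level relative to Monolayer among those measured in all cultures. It lay at 10.23 and 10.39 in iCSC, 7.03 and 7.54 in Sphere and 9.66 and 9.87 in Monolayer. GLI3 fell by 2.48 ± 0.19 on the log2 scale in Sphere against Monolayer (limma, adjusted p = 8.15e-05) and rose by 3.03 ± 0.19 in iCSC against Sphere (adjusted p = 6.69e-05). In iCSC it was 0.55 ± 0.19 above Monolayer (adjusted p = 0.0494), a call at the edge of the threshold. Of 19 alternatives, 11 ended the call. Leaving out iCSC replicate 1 (0.0829), iCSC replicate 2 (0.164), Monolayer replicate 1 (0.239) or Monolayer replicate 2 (0.108) did so. The other measured GLI3 probe set gave 9.09 and 9.13 in iCSC, 6.0 and 6.31 in Sphere and 8.76 and 8.74 in Monolayer, and its change of 0.36 ± 0.15 in iCSC against Monolayer was not called (adjusted p = 0.0894 over all probe sets). The 95% confidence intervals in iCSC against Monolayer, 0.08 to 1.01 for GLI3 and -2.62 to -2.14 for GAS1, did not overlap.

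GLI1, the amplifying factor and the usual transcript by which pathway activity is read, was not measured above background. Its only probe set gave 2.91 and 3.13 in iCSC, 2.64 and 2.57 in Sphere and 2.67 and 2.65 in Monolayer. The iCSC arrays were the highest of these. Over all probe sets of an array the lower quartile was 2.36 to 2.40 and the median 2.78 to 2.83.

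The GLI2 promoter is shown for its CpG pairs, in capitals, and because GLI2 was at background in Sphere and measured in Monolayer. GLI2 has 2 starts in the table, with 31 and 7 CpG pairs in 300 bases and no copy of the GLI motif in either window. The 250 bases before the CpG-rich start are chr2:120735618-120735867 on the plus strand. Over the 16 windows of the Hedgehog genes the CpG count ranged from 4 to 36, and 12 exceeded the median of 14 over all windows. GLI1 and GLI3 have no entry.
GLI2: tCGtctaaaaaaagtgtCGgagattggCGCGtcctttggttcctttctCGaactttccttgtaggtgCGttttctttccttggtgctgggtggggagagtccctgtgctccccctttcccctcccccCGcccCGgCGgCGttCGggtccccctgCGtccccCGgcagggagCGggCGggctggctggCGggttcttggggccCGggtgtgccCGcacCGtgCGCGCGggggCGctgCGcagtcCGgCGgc

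Where a gene had several tested probe sets (GLI2, GLI3 and BOC), their fold changes had the same sign in each comparison. Of the 30 probe sets, 12 entered and 17 were under the limit on all arrays. In a fit over all 18059 passing probe sets, the 12 were all called lower in Sphere against Monolayer, where 28.9% of probe sets were called lower and 28.1% higher, and 11 were called higher in iCSC against Sphere, where 17.4% were called higher and 17.1% lower. In iCSC against Monolayer 2 were called higher and 5 lower, where 27.7% and 26.6% of probe sets were. The tested probe sets of GLI2, SMO and HHIP and the second one of BOC were under the limit on both Sphere arrays. The filter favoured a difference in these, and probe sets of the same gene repeat each other. The counts of 12 and 11 are therefore not a fair match to the shares, and they include the SMO and HHIP calls between values under the limit.

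**Figure D3:**
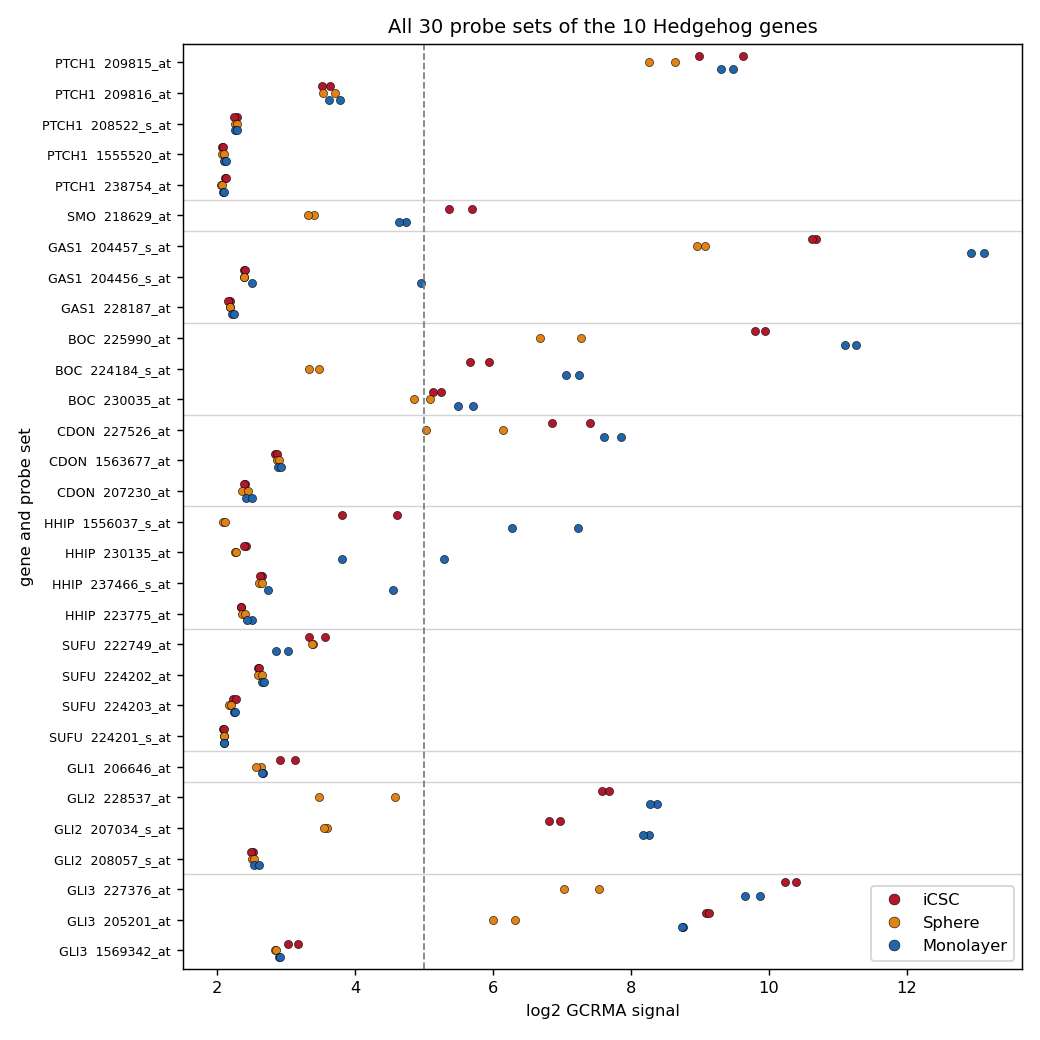
Every probe set of the 10 genes (rows), with the log2 GCRMA signal of each array (points, coloured by culture) and a dashed line at log2 5. For GLI2, GLI3 and BOC the leading and the next probe set place the cultures in the same order, while 17 probe sets stay left of the line on all arrays.

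The other pathway lists are read against the shares of all tested genes called higher and lower, 30.0% and 29.1% in Sphere against Monolayer, 19.3% and 19.2% in iCSC against Sphere and 29.0% and 26.6% in iCSC against Monolayer. The ligands SHH, IHH and DHH, named here outside the rule for named genes because they start the pathway, were under the limit on all arrays, at 2.23 to 2.44. Of 9 genes of ligand synthesis and release, DISP2, a relative of the ligand transporter DISP1, alone entered the test. It lay at 3.71 and 4.76 in iCSC, 7.25 and 6.89 in Sphere and 5.84 and 5.24 in Monolayer. DISP2 was highest in Sphere, by 1.53 over Monolayer (limma, adjusted p = 0.0135), a call lost without Monolayer replicate 2 (0.0938) or Sphere replicate 1 (0.0874). It was at least 4.21-fold lower in iCSC than in Sphere (adjusted p = 0.00186).

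Of 5 tested cell surface regulators, 2 passed as higher and 2 as lower in Sphere against Monolayer (median 0.01), 3 higher and 1 lower when iCSC was set against Sphere (median 0.89), and 1 higher and 3 lower in iCSC against Monolayer (median -0.59). With so few genes these counts are not set apart from the shares over all genes. GPC3 was under the limit in both iCSC and Monolayer. Its call as lower there, and the median of -0.59, which is its fitted value, therefore rest on background. GPC3, a glypican that binds Hedgehog ligand and competes with PTCH1 for it, lay at 3.71 and 3.76 in iCSC, 10.16 and 9.76 in Sphere and 4.35 and 4.31 in Monolayer. It was at least 31.1-fold higher in Sphere than in Monolayer (limma, adjusted p = 2.10e-06) and at least 31.1-fold lower in iCSC than in Sphere (adjusted p = 3.57e-06). NRP1, a co-receptor of semaphorins and VEGF that also promotes Hedgehog transduction, ran the other way at 5.90 and 5.73 in iCSC, 2.69 and 2.77 in Sphere and 10.61 and 10.65 in Monolayer. It was at least 49.4-fold lower in Sphere than in Monolayer (adjusted p = 6.05e-07).

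The cilium list holds genes of the organelle where SMO is activated. Of 16 tested, 9 passed as higher and 1 as lower in Sphere against Monolayer, 6 higher and 2 lower when iCSC was set against Sphere, and 11 higher and 1 lower in iCSC against Monolayer, with medians of 0.52, 0.20 and 0.60. In each comparison the calls of higher outnumbered those of lower, where over all tested genes both shares are within a few percent of each other. CEP290, a protein of the ciliary transition zone, lay at 10.19 and 9.997 in iCSC, 10.23 and 10.11 in Sphere and 8.74 and 8.85 in Monolayer, a rise of 1.38 ± 0.12 in Sphere against Monolayer (limma, adjusted p = 0.000124). GPR161, a ciliary receptor that keeps protein kinase A active and the pathway off, was highest in iCSC. It lay at 9.97 and 9.76 in iCSC, 8.64 and 8.55 in Sphere and 8.19 and 8.16 in Monolayer, a rise of 1.27 ± 0.13 in iCSC against Sphere (adjusted p = 0.000497).

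The list of kinases and ubiquitin ligases that act on GLI proteins also holds protein kinase A regulators (PRKAR1A, PRKAR2A, PRKAR2B, GNAS and ARHGAP36). Of its 20 tested genes, 9 passed as higher and 7 as lower in Sphere against Monolayer. When iCSC was set against Sphere, 3 passed as higher and 3 as lower. In iCSC against Monolayer 10 passed as higher and 6 as lower. The medians were 0.12, -0.01 and 0.24 in that order. The counts in iCSC against Sphere are near the shares over all tested genes. STK36, the human relative of the fly Hedgehog kinase Fused, lay at 9.52 and 9.86 in iCSC, 9.88 and 10.05 in Sphere and 7.51 and 7.62 in Monolayer, a rise of 2.40 ± 0.15 in Sphere against Monolayer (limma, adjusted p = 3.13e-05). ARHGAP36, which binds and inhibits the catalytic subunit of protein kinase A and so activates GLI proteins downstream of SMO, was highest in Sphere and lowest in Monolayer. It lay at 5.83 and 8.25 in iCSC, 12.95 and 12.35 in Sphere and 2.24 and 2.25 in Monolayer. It was at least 201-fold higher in Sphere than in Monolayer (adjusted p = 4.24e-05) and changed by -5.61 ± 0.71 in iCSC against Sphere (adjusted p = 0.00141).

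Of 18 reported GLI target genes on the arrays, 9 were under the limit throughout and 9 entered, of which 2 passed as higher and 5 as lower in Sphere against Monolayer, 2 higher and 2 lower when iCSC was set against Sphere, and 2 higher and 4 lower in iCSC against Monolayer, with medians of -0.97, -0.02 and -1.05. The counts in iCSC against Sphere are near the shares over all tested genes here too. FOXF1, IGFBP6 and SPP1 were under the limit in both of these cultures, however. In Sphere against Monolayer, CCND1, FOXM1 and SFRP1 alone were measured in both cultures. The other targets entered through cultures where they were high, so the filter favoured a difference in them. The medians of -0.02 and -1.05 are the fitted values of FOXF1 and IGFBP6, which rest on values under the limit. FOXF1, a forkhead factor of mesenchyme, lay at 1.89 and 1.91 in iCSC, 1.91 and 1.93 in Sphere and 6.99 and 6.10 in Monolayer. It was at least 2.92-fold lower than in Monolayer in both iCSC (limma, adjusted p = 4.33e-05) and Sphere (3.19e-05). BCL2, an inhibitor of apoptosis, was highest in Sphere, with 6.37 and 5.78 in iCSC, 9.58 and 9.57 in Sphere and 4.80 and 4.75 in Monolayer, and changed by -3.50 ± 0.22 in iCSC against Sphere (adjusted p = 6.37e-05). SFRP1, a secreted WNT antagonist, lay at 10.28 and 10.16 in iCSC, 13.12 and 12.80 in Sphere and 11.68 and 11.05 in Monolayer, and changed by -2.74 ± 0.21 in iCSC against Sphere (adjusted p = 0.000164). The 2 targets called higher in iCSC against Sphere were MYCN and JAG2, both under the limit in Sphere. MYCN, at 7.97 and 5.625 in iCSC, was at least 3.48-fold higher (adjusted p = 0.00429). JAG2, at 4.99 and 5.26 in iCSC, was at least 1.09-fold higher (adjusted p = 0.00323).

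**Figure D4:**
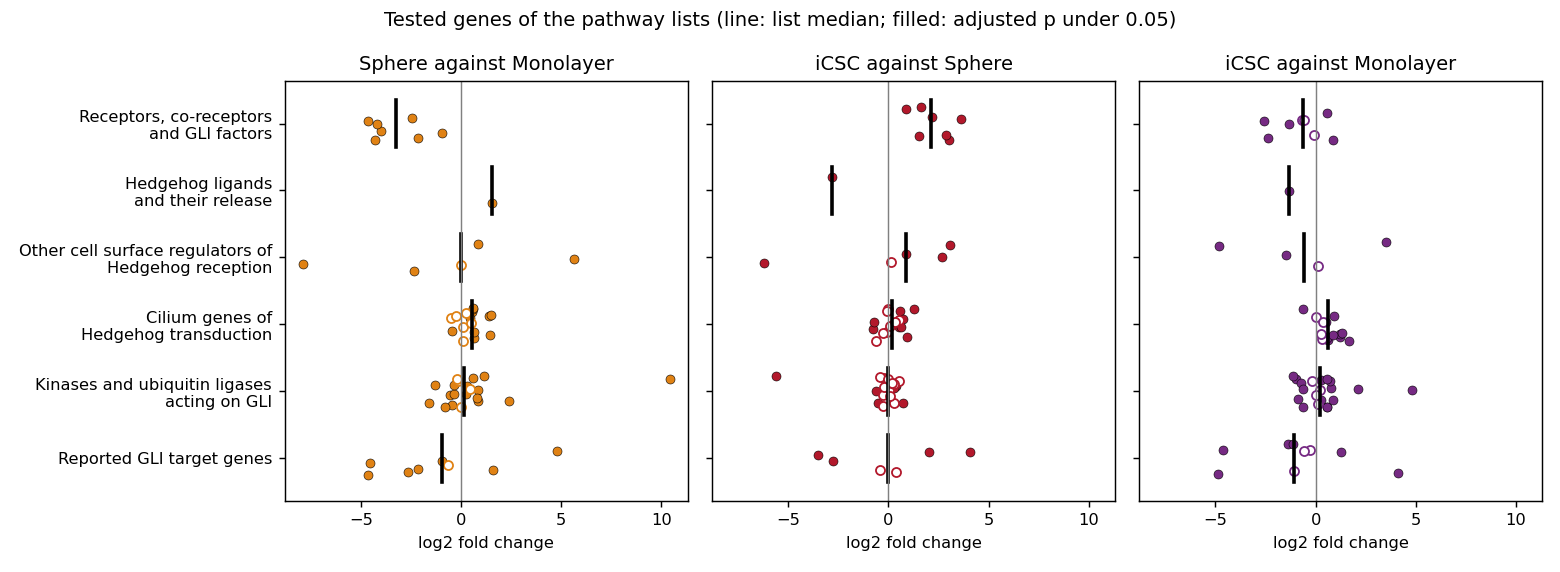
Fitted log2 fold changes of the tested genes of each pathway list (points, left out where both cultures lie under log2 5, filled where the adjusted p was under 0.05) and the median over all tested genes of the list (black line) in the 3 comparisons. The receptors, co-receptors and GLI factors lie left of 0 in Sphere against Monolayer and right of it in iCSC against Sphere, while the cilium list and the kinase list straddle 0.

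The genes with the most similar profiles were found by the root mean square distance over the 6 arrays between log2 profiles, each centred on the gene's own mean, among 10458 other genes. The nearest to GLI2 was SH3RF1 at 0.21 log2 units, with means of 8.49 in iCSC, 4.63 in Sphere and 9.32 in Monolayer. GLI3 was nearest to ISL2 (0.19), a LIM homeobox factor of neurons, and HMGA2 (0.20), a chromatin protein of embryonic and tumour cells whose means were 13.21, 9.90 and 12.63 in the same order of cultures. GAS1 was nearest to KIRREL1 (0.14) and BOC to TRIM59 (0.22), NRARP (0.23) and the collagen COL5A1 (0.28). PTCH1 was nearest to FZD2 (0.08), a WNT receptor, and SMO to HIP1R (0.14). These distances describe 6 arrays of 3 cultures and carry no test. They are not scaled by how much a gene varies, so they are not compared between members. The root mean square around the gene's own mean was 0.48 for PTCH1 and 1.91 for GLI2. Those of GLI2, HHIP and SMO, and of neighbours under log2 5 in a culture such as SH3RF1 and ISL2 (Sphere means 4.63 and 3.02), rest in part on background values, so their order is not read.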

How the data were processed

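Expression of SK-N-AS cells was measured on 6 one-colour Affymetrix arrays, 2 for each of iCSC, Sphere and Monolayer. The authors deposited log2 signals that GCRMA made from the scans, per the submitters' processing notes, which also name Partek without a version. GCRMA draws unexpressed probe sets to low values, so folds from under log2 5 are given as lower bounds with such values set to 5. The number of arrays limits the precision.

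Groups were taken from the sample titles. Probe sets were named from the platform annotation, with symbols updated by Entrez identifier to RefSeq GRCh38.p14 (41037 of 41091 single-symbol probe sets matched). Single-symbol probe sets with log2 5 on at least 2 arrays, and per gene the one with the highest mean, left 10459 genes. The model, in limma 3.58.1 (R 4.3.3), had a term for each culture and trended empirical Bayes. The fit was tested on simulated data. Promoter sequences are RefSeq's. Alternatives changed the filter, floor, normalization, variance model, arrays, probe set choice, replicate block and chromosome medians. Members and gene lists were chosen with earlier results of these data known. Named genes are all members, up to 4 called genes with the largest fold per pathway list and comparison, and the 3 nearest profiles of each tested member, of which the text names part.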

Additional observations from a re-analysis of the deposited data

How the results depend on the processing

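Under 19 alternatives per comparison, 18 planned and 1 added after the data were seen, no Hedgehog gene that was called changed its direction. The count of Hedgehog genes called in Sphere against Monolayer stayed within 1.5 times of 8, and lay between 7 and 8 when any single array was left out. In iCSC against Sphere it was 5 in place of 8 without empirical Bayes moderation, and between 6 and 8 with single arrays left out. In iCSC against Monolayer it was 3 in place of 5 with the stricter filter at log2 7 and 2 without x_at and s_at probe sets, both settings under which only 6 of the 10 genes entered, and between 4 and 6 with single arrays left out. In a fit without an array, the lone array of that culture is assumed to vary like the others. The calls of SMO in Sphere against Monolayer and of HHIP in iCSC against Sphere were lost with values under 5 set to 5, by construction (change of 0, adjusted p = 1). HHIP in iCSC against Sphere was also lost without moderation (limma's fit, adjusted p = 0.0823), as were CDON in Sphere against Monolayer (0.0550) and in iCSC against Sphere (0.138), PTCH1 in both comparisons with Sphere (0.0979 and 0.155) and GLI3 in iCSC against Monolayer (0.164). For the 50 other named genes, 2569 of 2787 results under the alternatives stayed the same. A call was lost in 197 and gained in 20, and 1 changed sign. That was TULP3 in iCSC against Monolayer, with a change of 0.51 in the main fit and -0.023 with chromosome medians removed. The replicate block left the counts at 8, 8 and 5. The labels do not say whether the replicate numbers pair the samples. Over genes, the replicate differences correlated at 0.17 between iCSC and Sphere, -0.05 between iCSC and Monolayer and 0.02 between Sphere and Monolayer. These values do not settle it.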
